A study of Danio rerio with 5 samples.

Results

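Fibrinogen and vitronectin are adhesive glycoproteins of the blood plasma, and their genes were among those more abundant in zebrafish embryos in which the GATA factors Gata5 and Gata6 had been targeted. The genes described are fga, fgb and fgg, which encode the alpha, beta and gamma chains of fibrinogen, and vtna and vtnb, which encode the related vitronectins a and b. They are 5 of the 13143 genes that have a named probe on the array, and 11 of its 43603 probes are named for them. Every non-control probe named for these genes was used, with the gene of a probe taken from its RefSeq accession. The genes were chosen with the values of this same comparison known, so their levels and differences are a description and carry no test.

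In vertebrates the chains of fibrinogen are made in the liver, joined by disulphide bonds and secreted as a single molecule. The protease thrombin trims the alpha and beta chains, and the resulting fibrin polymerises into the mesh of a clot, which plasmin later dissolves. Vitronectin, as known from mammals, circulates in plasma and is deposited in the matrix, where it binds integrins through an Arg-Gly-Asp motif. Zebrafish embryos of the stage studied have no formed liver, and the yolk syncytial layer, the nucleated layer beneath the embryo that passes yolk nutrients to it, is known to express many genes of secreted proteins that the liver later makes.

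Morpholinos were injected into 1-cell embryos. They are synthetic antisense oligonucleotides that block translation or splicing of a chosen RNA. The injected volume was 1 nl, and whole embryos were taken at 14 h post fertilization. The control MO group (3 arrays) received 7.5 ng of control morpholino, and the gata5/6 MO group (2 arrays) received 6.25 ng of gata5 and 1.25 ng of gata6 morpholino. No mutant allele or transgene is named in the labels, which state that this pair of morpholinos had been reported to reduce gata4 as well. RNA was labelled with Cy3 and read on 1-colour Agilent arrays, and a level below is the log2 of the processed signal over the 75th percentile of its array unless it is called an intensity.

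Between 70.1% and 71.1% of the probes of an array were well above background, and saturation was marked at no spot. The control MO arrays shared slide 1 and scan 1 and the gata5/6 MO arrays slide 2 and scan 2, so slide, scan and group cannot be told apart for any value here. Separate clutches are not stated for the replicates, and every p-value therefore measures a spread between samples that may be technical. Of the genes targeted or reported as reduced, gata4 had levels of -1.29, -1.31 and -1.35 in controls and -1.93 and -1.99 after gata5/6 MO, gata5 had 3.61, 3.60 and 3.59 against 5.47 and 5.70, and gata6 had 2.55, 2.52 and 2.55 against 5.47 and 5.31. Since a morpholino can block translation and leave the RNA in place, these RNA levels are no check of the injection. All 3 somite, 3 neural, 3 notochord and 3 epidermal marker genes looked at were well above background on every array. Of these tp63 alone passed as lower (-0.47, SE 0.117, limma adjusted p = 0.0491). Its call was lost under 10 alternative processing choices. Among them were leaving out any control array (-0.45 to -0.48), quantile normalization (limma adjusted p = 0.0518) and the mean over probes (limma adjusted p = 0.115). Of 5 thrombocyte markers nfe2 alone was measured, well above background on every array, and did not pass (0.01, SE 0.0946, limma adjusted p = 0.971). The markers itga2b, mpl and gp1bb had no probe that was well above background throughout a group, and gp9 had no named probe.

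All 11 probes were well above background on all 5 arrays, with intensities between 45.8 and 5612 units, so none of the levels below is a bound. On each of the 11 probes both gata5/6 MO arrays lay above all 3 control MO arrays, which was also true of 25.3% of the 30623 probes kept for testing. The smallest gap between the lowest gata5/6 MO array and the highest control MO array was 1.24 on the log2 scale and the largest 3.28. Within groups, the arrays spanned 0.058 to 0.204 among controls and 0.067 to 0.564 after gata5/6 MO. All 5 genes also passed limma's threshold in the upward direction (Benjamini-Hochberg adjusted p under 0.05), as did 7.84% of the 10792 genes tested, and in a fit over probes all 11 passed it, as did 6.08% of the 30623 probes. Nothing is read from these counts, because the genes were chosen on the same comparison. In either direction 15% of genes passed. In whole embryos, more cells of a type and more RNA per cell cannot be told apart.

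**Figure D1:**
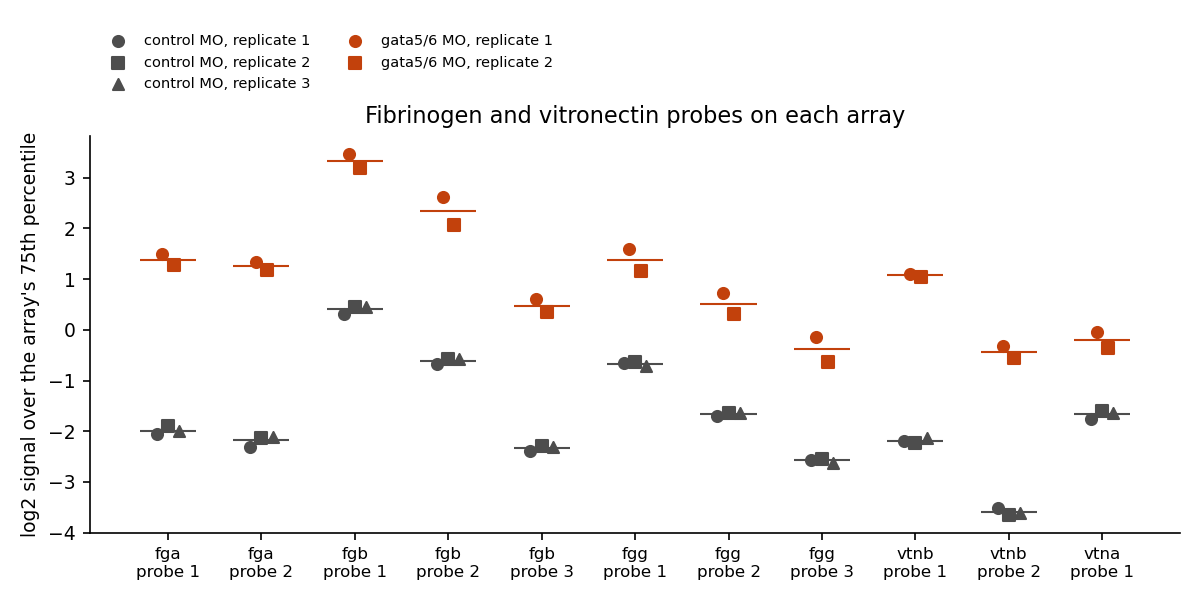
Levels of the 11 fibrinogen and vitronectin probes on each array, as log2 of the processed signal over the array's 75th percentile, with 3 control MO arrays in grey and 2 gata5/6 MO arrays in orange. Horizontal lines are group means and probes of a gene are numbered from the brightest. On all 11 probes the orange symbols lie above the grey ones, by at least 1.24.

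The alpha chain gene fga, whose protein carries cross-linking sites of fibrin, had the largest difference of the 5. Its brighter probe gave intensities of 137, 154 and 140 units on the control MO arrays and 1419 and 1366 units on the gata5/6 MO arrays. The groups were far apart and the arrays within each close together. The mean level was -1.99 ± 0.08 (SD, n = 3) in controls and 1.38 ± 0.15 (SD, n = 2) after gata5/6 MO, a log2 difference of 3.37 (SE 0.112), or 10.3-fold. The second fga probe read 115, 131 and 130 units in controls against 1272 and 1271 units, a log2 difference of 3.43 (SE 0.114). Both probes therefore placed the alpha chain at more than 10-fold higher.

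The beta chain gene fgb was read by 3 probes, which gave similar differences. The brightest gave 709, 786 and 766 units in controls and 5612 and 5122 units after gata5/6 MO, a log2 difference of 2.92 (SE 0.123), or 7.58-fold. The second gave 357, 385 and 375 units in controls and 3117 and 2345 units after gata5/6 MO, a log2 difference of 2.95 (SE 0.176). The third and dimmest gave 109, 117 and 113 units against 767 and 720 units, a log2 difference of 2.81 (SE 0.112). On each probe the groups were separated by far more than the arrays within a group, and the fold over the 3 probes ran from 7.01 to 7.74.

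The gamma chain gene fgg, whose protein holds the main platelet integrin site and much of the fibrin polymerisation pocket, had the smallest difference of the fibrinogen chains. Its brightest probe gave 362, 369 and 340 units in controls and 1528 and 1251 units after gata5/6 MO, with mean levels of -0.67 ± 0.04 (SD, n = 3) and 1.37 ± 0.31 (SD, n = 2). The log2 difference was 2.05 (SE 0.148), or 4.13-fold. The second probe gave 176, 184 and 179 units against 838 and 695 units, and the third 95.9, 98.8 and 91.3 units against 460 and 364 units. Their log2 differences were 2.18 (SE 0.144) and 2.19 (SE 0.158), and on each of the 3 probes gata5/6 MO replicate 1 read higher than replicate 2.

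The vitronectin genes were both higher after gata5/6 MO, and by very different amounts. The vtnb gene gave 124, 123 and 127 units in controls on its brighter probe and 1089 and 1155 units after gata5/6 MO. Its mean levels were -2.19 ± 0.04 (SD, n = 3) and 1.07 ± 0.05 (SD, n = 2), a log2 difference of 3.26 (SE 0.0927), or 9.57-fold, with the narrowest spread between gata5/6 MO arrays of any of the 11 probes. The dimmer vtnb probe gave 49.9, 45.9 and 45.8 units against 408 and 383 units, a log2 difference of 3.16 (SE 0.115). Both probes separated the groups widely, and their difference lay between those of fga and fgb.

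The only named vtna probe gave 168, 190 and 180 units in controls and 492 and 439 units after gata5/6 MO. Its mean levels were -1.67 ± 0.08 (SD, n = 3) and -0.20 ± 0.22 (SD, n = 2), a log2 difference of 1.47 (SE 0.130), or 2.76-fold. This was the smallest difference of the 5 genes, and with a single named probe it has no second reading here. Any further vtna probe among the 18005 probes without a gene name would not be seen.

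Among the fibrinogen chains the differences therefore fell in the order alpha, beta, gamma. The probes of fga spanned 3.37 to 3.43, those of fgb 2.81 to 2.95 and those of fgg 2.05 to 2.19, so that no probe of a chain reached the range of another. The same order held on each gata5/6 MO array alone, where the fga change from the control mean exceeded that of fgb by 0.41 and 0.49 and the fgb change exceeded that of fgg by 0.80 and 0.95 (brightest probes). The change of vtnb exceeded that of vtna by 1.67 and 1.92. These gaps between genes were not tested, since all of them belong to the comparison on which the genes were chosen. No error was computed for a gap, and the SE of a single probe does not measure it.

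**Figure D2:**
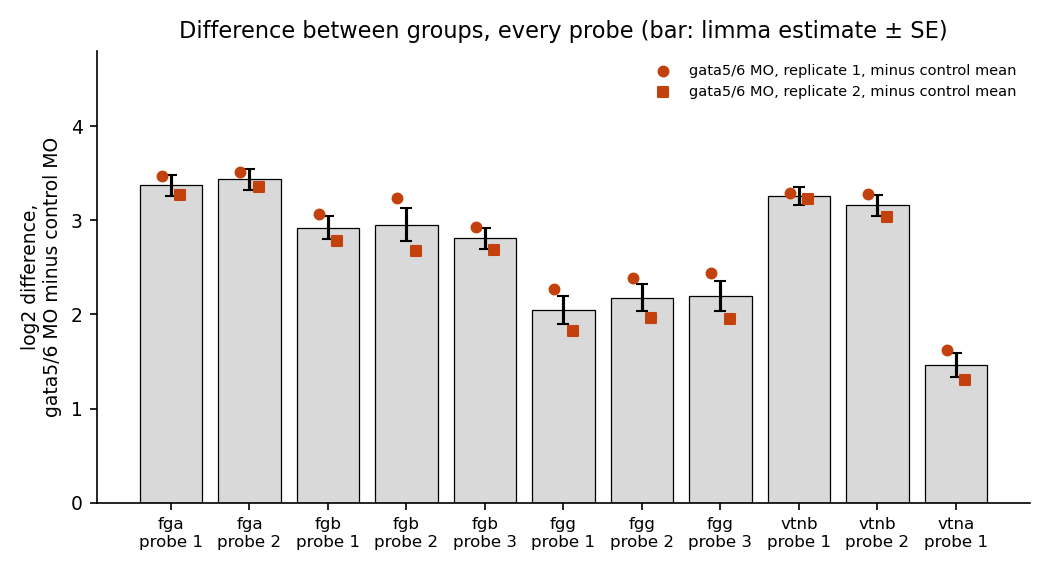
Log2 difference, gata5/6 MO minus control MO, for every probe, with bars showing the limma estimate and error bars its SE. Circles and squares are gata5/6 MO replicates 1 and 2, each minus the control mean. The probes of each gene lie close together, from 3.37 and 3.43 for fga down to 1.47 for vtna.

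The normexp method corrects for background and adds 50 units to every spot, which shrinks the differences of dim probes. On its scale all 5 genes stayed higher after gata5/6 MO. Default normexp uses every local background as read, also at 4 spots where it exceeded the signal by over 100 units. With default normexp 3 of the 5 passed limma's threshold, and vtna and vtnb did not. Repaired normexp has the same offset but replaces the background of spots whose local background far exceeded their signal, and with it all 5 passed. Of the 10792 genes tested, 19 passed as higher with default and 841 with repaired normexp, and nothing is read from the calls of the 5. The alpha, beta, gamma order of the chains was kept by every probe on all 5 scales computed. These were the 75th percentile, quantile normalization, the authors' value table and normexp in its default and repaired forms. The first 2 start from the same processed signal, with which the authors' values correlated at 0.99985 to 0.99999. The 3 scales without normexp are therefore near copies and no separate checks. The margin of the lowest fga over the highest fgb probe was 0.42 on the 75th percentile scale. It shrank to 0.025 with default and 0.16 with repaired normexp, so the alpha over beta order nearly vanished with default normexp. The place of vtnb was not kept. Its probes lay above those of fgb on the 3 scales without normexp. With default normexp they gave 1.85 to 2.23 against 1.96 to 2.68 for fgb, and with repaired normexp 2.23 to 2.51 against 2.23 to 2.74. The vtnb fold moved by 2.03 times with default and 1.68 times with repaired normexp, and that of fga by 1.58 times with default normexp.

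**Figure D3:**
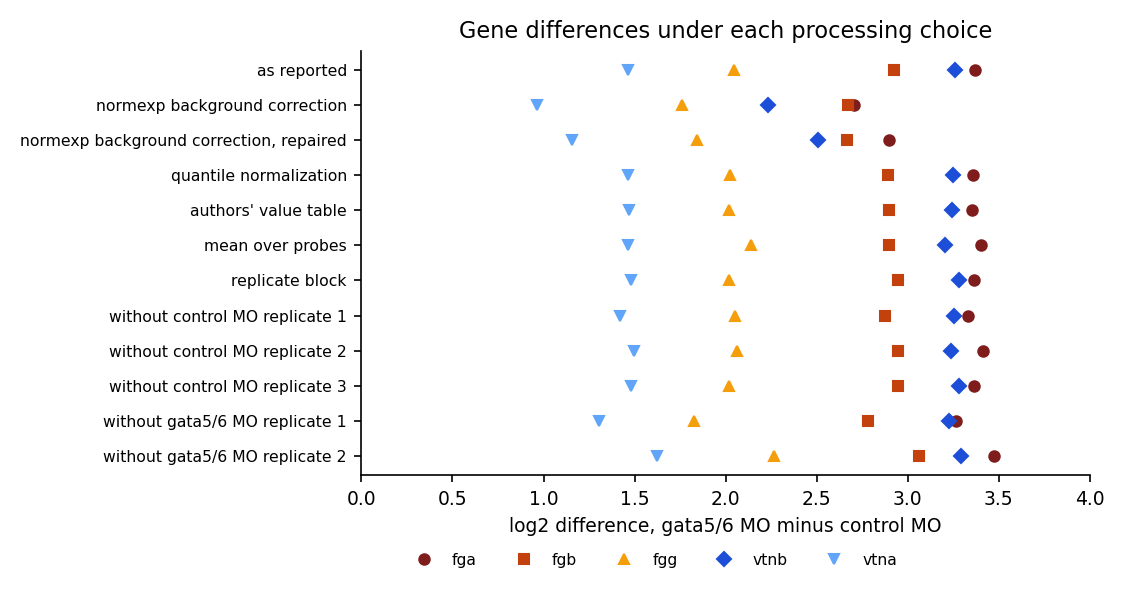
Log2 difference of each gene, gata5/6 MO minus control MO, by its brightest probe under each processing choice (the mean of its probes where so labelled). All points lie above 0, from 0.96 for vtna with default normexp to 3.47 for fga without gata5/6 MO replicate 2, and vtnb lies below fgb with both forms of normexp.

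The gata5/6 MO arrays did not read these genes equally. Replicate 1 was higher than replicate 2 on all 11 probes, by 0.07 to 0.56 with a median of 0.28, whereas over all 30623 probes kept it was the higher for 49.4% with a median difference of -0.01. The same 11 probes were higher in replicate 1 in the authors' value table (0.04 to 0.50), and 10 of 11 in unscaled intensity, the exception being the brighter vtnb probe. Among the 11 probes the largest difference between these arrays was that of the second fgb probe, and the smallest that of the brighter vtnb probe. Such a skew was not particular to these genes. Every gene that rose in the fibrinolysis list and in the yolk syncytial layer and liver list below also read higher in replicate 1. Among them were cpb2 (levels of -1.49 and -2.05) and ahsg1 (-0.79 and -0.95). So did most genes that rose in the coagulation list, such as f2 (3.00 and 2.81). The exceptions there were f7l (-1.82 and -1.57), f10 (-3.48 and -3.31) and proca (-4.85 and -4.81), lower in replicate 1. Genes that rose in the other lists went both ways, with nr1h4 (-4.22 and -4.60) higher and hhex (2.55 and 2.60) lower in it. What separates the arrays was not tested.

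In the gene order of the current RefSeq zebrafish assembly, fgb and fga lie on 1 chromosome with a single coding gene, LOC100536670, between them, and fgg lies on the same chromosome with 258 coding genes between it and fga. The vitronectin genes lie on other chromosomes, apart from each other. Of the 17 genes other than these that lie within 2 places of a fibrinogen or vitronectin gene, 9 were measured. Of the 9, 1 passed as higher and 2 as lower, against 7.84% and 7.17% of all genes. None of the measured neighbours of fga, fgb or fgg passed the test, but with so few of them nothing is read from this. They were rnf175 beside fgb at 0.14 (SE 0.111, limma adjusted p = 0.425) and plrg1 beside fgg at 0.18 (SE 0.0923, adjusted p = 0.239). The others were the retinol acyltransferase genes lratb.2 near fga at 0.02 (SE 0.115, adjusted p = 0.936) and lrata beside fgg at 0.17 (SE 0.144, adjusted p = 0.465).

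Beside vtna, sarm1 (-0.24, adjusted p = 0.155) and the folate transporter gene slc46a1 (0.24, adjusted p = 0.310) did not pass. Around vtnb, traf4b rose by 0.67 (SE 0.0848, limma adjusted p = 0.00512), while unc119a2 fell by 0.73 (SE 0.102, adjusted p = 0.00779). The carboxylate transporter gene slc13a2, next to vtnb, was well above background on neither gata5/6 MO array. It passed the filter only through the controls, in which it was high, with a fitted difference of -0.88 (SE 0.161, limma adjusted p = 0.0196). Fitting each group with its own variance ended all 3 calls (adjusted p = 0.0504 to 0.219), that of unc119a2 also with the mean over its probes (-0.25, adjusted p = 0.161), and that of slc13a2 with repaired normexp (-0.11, adjusted p = 0.437) and without control MO replicate 2 or 3 (-0.85 and -0.78).

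The genes most like each of these were taken as the 3 named genes at the smallest Euclidean distance over the 5 arrays, after subtracting each gene's control mean. For fga these were the cytokine subunit gene ebi3 (0.263), the deiodinase gene dio2 (0.271) and the interferon gene ifnphi1 (0.274), all farther away than vtnb (0.242). For fgb they were gata6 (0.186), whose morpholino was injected, the glyoxylate reductase gene grhprb (0.199) and the uridine phosphorylase gene upp1 (0.250), with vtnb at 0.512 and fga at 0.640. For fgg they were sat2b (0.163), arf4b (0.170) and the formiminotransferase gene ftcd (0.232), and for vtna rasd1 (0.136), cyp2p6 (0.139) and the egg coat gene zp3b (0.183). For vtnb they were ifnphi1 (0.163), cd81b (0.183) and smtlb (0.185). Of these, dio2, ifnphi1, upp1, arf4b, cd81b and smtlb were well above background on no control array. With 5 arrays in 2 groups this distance mainly ranks genes by how alike their differences are.

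Genes of the clotting cascade that ends at fibrinogen were measured alongside, from a list chosen with earlier results of these data known. Of 15 measured members, 9 rose, 2 fell and 4 did not pass, against 7.84% of all genes higher and 7.17% lower, and the median log2 difference was 0.90 against 0.04 for all genes. With default normexp, whose calls changed when the background of 4 spots was replaced, 43 genes passed in all. Of the list, marker and neighbour genes named here apoa4a alone kept its call with it. Of the 9 that rose, f9b and proca were well above background on no control array and f9a on 2 of the 3. These genes therefore passed the filter only through the group in which they were high. Over probes well above background on every array the coagulation count was 7 higher and 2 lower. Factor VII starts the tissue factor pathway, and f7i is known in zebrafish as a catalytically inactive copy that inhibits it. The factor VII family genes f7, f7l and f7i rose by 3.77 (SE 0.170, limma adjusted p = 0.000147), 2.86 (SE 0.109, adjusted p = 9.88e-05) and 2.70 (SE 0.150, adjusted p = 0.000294). All 3 are dim, and with repaired normexp their differences were 1.83, 1.53 and 1.36, with default normexp 1.33, 1.04 and 0.84. Factor VII genes of fish are related copies, which the probes may not tell apart.

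The next genes were chosen after their values were seen, for their place next to fibrinogen. Prothrombin, the precursor of the enzyme that cleaves fibrinogen, is encoded by f2, which had levels of 2.01 on average in controls and rose by 0.90 (SE 0.0936, adjusted p = 0.00268), and f10, whose product activates prothrombin, rose by 1.75 (SE 0.154, adjusted p = 0.00140) with a difference of 0.59 under repaired and 0.036 under default normexp. The transglutaminase gene f13a1b, whose product cross-links fibrin, fell by 0.55 (SE 0.0978, adjusted p = 0.0176), a call lost when any control array was left out (-0.51 to -0.60). The count of 11 passing genes was 7, all of them higher, without control MO replicate 2 or when each group had its own variance.

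Among 8 measured genes of fibrinolysis, the removal of fibrin, 4 rose, 1 fell and 3 did not pass, with a median of 0.54. The shares over all genes were 7.84% higher and 7.17% lower. The gene cpb2, encoding a carboxypeptidase that protects fibrin from plasmin, rose by 1.84 (SE 0.171, limma adjusted p = 0.00167), with a difference of 1.16 under repaired and 0.78 under default normexp, and serpinf2b, encoding an antiplasmin, rose by 1.21 (SE 0.117, adjusted p = 0.00196). Plasminogen's gene plg, chosen after its value was seen, rose by 0.42 (SE 0.0835, adjusted p = 0.0242), and lost its call without any single control array (0.40 to 0.45), with group-wise variances (adjusted p = 0.150) and with the replicate block (adjusted p = 0.114). The count of 5 passing genes was 2, both higher, without control MO replicate 2 or 3 or with group-wise variances.

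Receptors of fibrinogen, fibrin and vitronectin formed a further list. Of 7 measured members, 1 rose, 1 fell and 5 did not pass, against 7.84% of all genes higher and 7.17% lower. The median was -0.28. The alpha V integrin gene itgav, the partner of several vitronectin-binding receptors, had a mean level of -1.45 in controls and fell by 1.43 (SE 0.140, limma adjusted p = 0.00204). Its difference was -0.93 with the mean over probes and -0.88 with repaired normexp. The cadherin gene cdh5, whose product binds fibrin at endothelial junctions, was at least 1.90-fold higher after gata5/6 MO (adjusted p = 0.00456). Being well above background on no control array, cdh5 passed the filter only through the group in which it was high. Its call was lost with repaired normexp (0.27, adjusted p = 0.0580) and with group-wise variances (adjusted p = 0.109). The beta 1 integrin gene itgb1b gave -0.24 (SE 0.0836, adjusted p = 0.110), and the beta 3 integrin genes itgb3a and itgb3b and the platelet integrin gene itga2b were not well above background throughout a group. Over probes well above background on every array 1 gene passed, as lower, and without gata5/6 MO replicate 2 the count was 6, with 5 of them lower.

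Of 10 measured genes that carry a fibrinogen-like domain or encode other adhesive matrix proteins, 3 rose, 1 fell and 6 did not pass. Their median was -0.14, and over all genes 7.84% were higher and 7.17% lower. The angiopoietin gene angpt2b rose by 1.11 (SE 0.0856, limma adjusted p = 0.000959), and the angiopoietin-like gene angptl2b fell by 0.90 (SE 0.0927, adjusted p = 0.00258). The lubricin gene prg4a, which like vitronectin has hemopexin and somatomedin B domains, was at least 1.60-fold higher after gata5/6 MO (limma adjusted p = 0.00608). Being well above background on no control array, prg4a passed the filter only through the group in which it was high. Its call was lost with repaired normexp (0.18, adjusted p = 0.155) and with group-wise variances (adjusted p = 0.0819). The fibronectin genes fn1a (-0.18, SE 0.201, adjusted p = 0.568) and fn1b (-0.38, SE 0.229, adjusted p = 0.300), chosen after their values were seen, did not pass, and both passed as lower without gata5/6 MO replicate 2 (-0.51 and -0.79). Over probes well above background on every array 1 gene passed as higher and 1 as lower, and without gata5/6 MO replicate 2 the count was 8, with 5 of them lower.

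Genes of transcription factors that regulate liver genes, fibrinogen among them, formed a list of their own. Of 19 measured members, 3 rose, 4 fell and 12 did not pass, against 7.84% of all genes higher and 7.17% lower. The median was 0.04, the same as for all genes at 2 decimals. The gene onecut1 fell by 1.44 (SE 0.174, limma adjusted p = 0.00440). The bile acid receptor gene nr1h4 was at least 2.57-fold higher after gata5/6 MO (limma adjusted p = 0.00839), with no control array well above background. It therefore passed the filter only through the group in which it was high. The nr1h4 difference was 0.53 with repaired normexp against a fitted 2.90. The hhex gene, needed for the liver bud, rose by 0.55 (SE 0.0793, adjusted p = 0.00882), a call lost when any control array was left out (0.54 to 0.55), and fitting each group's variance separately ended the calls of both nr1h4 (adjusted p = 0.173) and hhex (adjusted p = 0.0570). The gene cebpa, whose product binds fibrinogen promoters in mammals, did not pass (0.05, SE 0.0866, adjusted p = 0.716) and is named here with its value already seen. Without control MO replicate 1, 2 or 3 the count of 7 passing genes was 2, 3 and 2. Over probes well above background on every array it was 6, with 2 higher and 4 lower.

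Genes of the yolk syncytial layer and of liver secretion moved in both directions. Of 18 measured members, 8 rose, 5 fell and 5 did not pass, against 7.84% of all genes higher and 7.17% lower. The median was 0.18. The fetuin gene ahsg1 and the inter-alpha-trypsin inhibitor chain gene itih3a.1 rose by 4.12 (SE 0.207, limma adjusted p = 0.000197) and 2.63 (SE 0.132, adjusted p = 0.000197), and the apolipoprotein gene apoa4a fell by 3.92 (SE 0.231, adjusted p = 0.000357). The differences of ahsg1 and itih3a.1 were 2.30 and 1.89 with repaired normexp and 1.77 and 1.55 with default normexp, and that of ahsg1 was 3.40 with the mean over probes. Without any single control array the count of 13 passing genes was 7, with 4 higher and 3 lower. Over probes well above background on every array it was 12, with 8 higher and 4 lower.

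**Figure D4:**
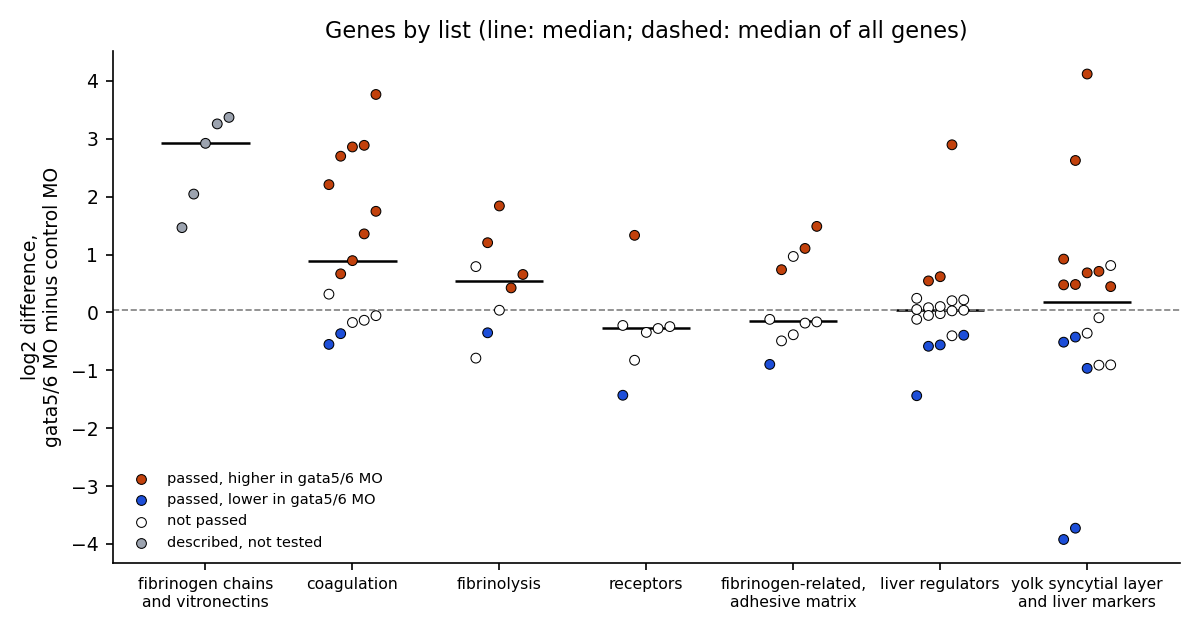
Log2 difference, gata5/6 MO minus control MO, of each measured gene in 6 lists beside the 5 fibrinogen and vitronectin genes. Filled orange and blue points passed limma's test as higher and lower, white points did not pass, grey points are described without a test, short lines are list medians and the dashed line is the median of all genes (0.04). The coagulation list, with a median of 0.90, has 9 points higher and 2 lower, whereas the liver regulators centre on 0.04.

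The marker genes of cell types that could carry fibrinogen and vitronectin RNA moved beside these results as follows. Of 5 yolk syncytial layer markers 4 were measured, with hnf4a higher (0.62, SE 0.112, limma adjusted p = 0.0192), slc40a1 and apobb.1 lower (-0.51 and -0.42, adjusted p = 0.0135 and 0.0280), mttp not passing (-0.36, adjusted p = 0.0536) and mxtx2 not well above background. Their summed level, in multiples of the array's 75th percentile, ran from 114 to 118 in controls and from 82.3 to 90.6 after gata5/6 MO. Nearly all of it was the single apobb.1 probe, at 110.0 to 114 in controls and 79.5 to 87.6 after gata5/6 MO, and the other 3 summed to 3.62 to 3.65 and 2.72 to 2.99. The 3 calls were lost when any control array was left out and with group-wise variances (adjusted p = 0.103 to 0.131), that of hnf4a also with repaired normexp (0.29, adjusted p = 0.0609) and that of apobb.1 also with the replicate block (adjusted p = 0.100).

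Of 5 hepatocyte markers 3 were measured, and only fabp10a was well above background on every array. Their summed level was 0.0852 to 0.0911 in controls and 0.110 to 0.112 after gata5/6 MO. Of these fabp10a rose by 0.71 (SE 0.0993, limma adjusted p = 0.00764), a call lost with repaired normexp (0.25, adjusted p = 0.0673), with the mean over probes (0.61, adjusted p = 0.0549) and with group-wise variances (adjusted p = 0.0504), whereas cp gave 0.81 (adjusted p = 0.0754) and ttr -0.91 (adjusted p = 0.0582). Of 5 endoderm markers 4 were measured. Most of their summed level came from foxa2, foxa3 and cxcr4a, which did not pass (0.08, 0.20 and 0.07, limma adjusted p = 0.529, 0.353 and 0.604). The 4 summed to 11.3 to 12.2 in controls and 12.5 to 12.8 after gata5/6 MO. Of these sox32 rose by 1.66 (SE 0.397, adjusted p = 0.0435), or by 0.67 with repaired normexp, a call lost without control MO replicate 2 (1.33) or 3 (1.58), without gata5/6 MO replicate 1 (1.61) or 2 (1.70), without the filter on dim probes (adjusted p = 0.0850) and with group-wise variances (adjusted p = 0.389), and sox17 was not well above background. The part of any of these cell types in the fibrinogen and vitronectin differences was not tested.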

How the data were processed

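Total RNA of whole embryos was measured on 5 arrays, 3 control MO and 2 gata5/6 MO. Spots have a deposited processed intensity, made per the file headers by Agilent Feature Extraction 10.7.3.1 (10.7.1.1 per the submitters' processing notes) and not scaled between arrays, and the raw median and local background intensity of each spot were deposited too. The deposited value table holds log2 values that correlated with the log2 processed signal at 0.99985 to 0.99999 across probes, uncentred and each with a median of 6.09. The sources used here do not state how the authors made it. Ratio direction is not at issue with a single colour. The deposited marks for spots above background, saturated or outlying are used as given, a 0 or 1 score per spot.

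Of 43603 probes, 25598 (58.7%) were named through RefSeq accessions of assembly GRCz12tu, for names and gene order alone, since the array was designed on an older build. The 52 probes with an outlier spot were left out, and 30623 were kept because all arrays of a group, or of both, marked them well above background. A gene was its brightest kept probe. The test was limma's moderated linear model (version 3.58.1 under R 4.3.3, lmFit with eBayes and group as the term, two-sided Benjamini-Hochberg adjusted p under 0.05 over 10792 genes), checked on simulated data. The SEs of fibrinogen and vitronectin probes come from the same fit over all kept probes. The simulated data had equal spread in both groups, whereas the median SD per gene here was 0.065 in controls and 0.170 after gata5/6 MO. The simulation therefore does not cover unequal variances. An "at least" fold sets the bright group's mean against, per array, the higher of the dim probe's signal and the lowest signal well above background.

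The genes described, the lists and the alternatives were chosen with earlier results of these data known. The rule named every probe of the 5 genes, from each list the 3 members of lowest adjusted p, and the 3 genes nearest to each of the 5. Genes named beyond it are markers, targets or neighbours, or are given as chosen with their values in view. The remaining ones are list genes named because they were not well above background on every array. Single values of some list genes are not reported here. The alternatives were normexp (offset 50, on median signals), quantile normalization, the authors' table, other filters on dim probes, the mean over probes, trend and robust eBayes, a variance for each group (group-wise variances), the replicate block and leaving out each array. Repaired normexp, added after seeing the data, gives 4 spots whose local background exceeded their signal by over 100 units their array's median background. The number of arrays limits the precision.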

Additional observations from a re-analysis of the deposited data

How the results depend on the processing

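The fibrinogen and vitronectin genes stayed higher after gata5/6 MO in all 55 recomputed differences. Those without 1 array could not turn, since on every probe both gata5/6 MO arrays lay above all control MO arrays. With both gata5/6 MO arrays kept, all 5 passed limma's threshold under every alternative except default normexp, where vtna and vtnb did not. Nothing is read from these signs or calls, because the genes were chosen on the same comparison. The log2 differences of fga, fgb, fgg, vtna and vtnb were 2.71, 2.67, 1.76, 0.96 and 2.23 with default normexp and 2.90, 2.66, 1.84, 1.15 and 2.51 with repaired normexp, whose added offset shrinks dim probes by construction, and vtnb gave 3.21 with the mean over probes. Leaving out each array gave 2.78 to 3.06 for fgb, 1.82 to 2.27 for fgg and 1.31 to 1.62 for vtna. Of 1620 genes passing (846 higher, 774 lower), 43 (19 and 24) passed with default normexp, 547 (290 and 257) with a variance for each group, and 685 to 5280 without 1 array, the highest of these without gata5/6 MO replicate 2. With default normexp the limma counts were 0 for the coagulation, fibrinolysis, receptor, matrix and liver regulator lists, with 4, 2, 1, 2 and 2 members at an unadjusted p under 0.05, and 1 for the yolk syncytial layer and liver markers. With a variance for each group the counts were 7, 2, 1, 2, 1 and 6 in the same order. Without 1 array they were 7 to 11, 2 to 6, 2 to 6, 4 to 8, 2 to 7 and 7 to 15. The receptor count was 1 with repaired normexp and over probes above background on every array, where the matrix count was 2. Directions turned with default normexp for cdh5 (-0.30), prg4a (-0.36), nr1h4 (-0.056), hnf4a (-0.076) and fabp10a (-0.26), with repaired normexp (-0.011) and the mean over probes (-0.026) for cebpa, and without gata5/6 MO replicate 1 for fn1a (0.14) and fn1b (0.017), which passed as lower without replicate 2 (-0.51 and -0.79), and the cause was not tested. The labels do not say what replicate numbers share. Deviations of same-numbered arrays correlated at 0.12 and 0.20 across genes. The deviations of 2 gata5/6 MO arrays mirror each other, and control MO replicate 3, without a partner, gave 0.09 and -0.09. Pairing therefore cannot be judged from these values. With the replicate block 1784 genes passed, and fga, fgb, fgg, vtna and vtnb gave 3.36, 2.94, 2.02, 1.48 and 3.28. The block fitted control MO replicate 3 apart, so its differences equal those without that array. Slide could not be a block, since each held 1 group. Where 1 gata5/6 MO array was left, it was assumed to vary like the controls.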
